A study of Capra hircus with 2 samples.

Results

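The miR-30 family is a set of microRNAs, short RNAs that guide repressor proteins to messenger RNAs by base pairing, and it was followed here in 2 small RNA libraries of goat testicular cells. Its members were all entries whose miRNA name, without species prefix, copy number and arm, was miR-30a, miR-30b, miR-30c, miR-30d, miR-30e or miR-30f. Summed by name and arm, these gave 12 miRNA arms of 1808 in all, a 5p and a 3p arm for each of the 6 members. The cells came from 3 testes of 3 Saanen dairy goats aged 5 months, and were released with a mix of collagenase, DNase and a further digestive enzyme. After an overnight plating step to take away Sertoli and myoid cells, the cells that had not attached were separated on magnetic columns into CD49f-positive and CD49f-negative cells. CD49f, also called integrin alpha-6, sits on the cell surface and serves as a handle for sorting spermatogonial stem cells. Both groups therefore share breed, age, digestion and plating. Whether the goats were pooled is not stated. With 1 library in each group, nothing below could be checked against replicates, and p-values are left out. The libraries held 8196507 (CD49f-positive) and 3064462 (CD49f-negative) reads assigned to named miRNAs, and all intervals are exact 95% intervals. These reflect counting error of reads alone and leave out differences between animals, sorts and library preparations. Amplified reads that carry no molecular identifier cannot be traced to separate molecules, so the intervals may be too narrow even as counts of molecules.

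A miRNA finds its targets mainly through its seed, bases 2 to 8 from the 5′ end, so miRNAs with 1 seed are grouped as a family. Each miRNA hairpin can give a product from its 5p and from its 3p side, and the side that is kept more often is called the guide. For miR-30 the guide is usually the 5p arm. Reported targets of the family include BECN1, which acts in autophagy, SNAI1, a driver of epithelial-to-mesenchymal transition, and CCN2, a growth factor of connective tissue. The files hold no messenger RNA, so targets were not analysed here.

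The 5p sequences below are those listed by the authors at the 6 hairpins. They are shown because the shared seed defines the family and because single bases outside it are all that separates some members. The seed is in capitals.
miR-30a-5p: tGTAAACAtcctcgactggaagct
miR-30d-5p: tGTAAACAtccccgac
miR-30e-5p: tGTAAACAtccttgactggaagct
miR-30b-5p: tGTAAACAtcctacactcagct
miR-30c-5p: tGTAAACAtcctacactctcagc
miR-30f-5p: tGTAAACAccctacactctcagc

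The listed 5p sequence of each member was the same in both libraries, and all 6 carried the seed GTAAACA. Positions are counted from 1 at the 5′ end, with the base of the first-named miRNA first. Over the first 16 bases, miR-30a differed from miR-30d by T12C alone and from miR-30e by C13T alone. Over the same bases miR-30c differed from miR-30f by T9C alone. miR-30b and miR-30c were identical over their first 18 bases, so a read that ends before that point fits both. The listed miR-30d-5p sequence was 16 bases long against 24 bases for the matched miRBase sequence, and its copies numbered 15518 among CD49f-positive and 6065 among CD49f-negative reads. The other members were listed at 22 to 24 bases. Outside the family, the seed stood at bases 2 to 8 of 1 other listed sequence, an entry named miR-3676-5p with 1 read in the CD49f-negative library. miR-384, a miRNA known to share this seed, had 0 entries.

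The 6 hairpins lay in 3 pairs, in the coordinates of the deposited files, whose genome build is not given in the sources used here. miR-30a (chr14:2457589-2457695) and miR-30f (chr14:2494955-2495038) were on the plus strand, 37259 bases apart. miR-30d (chr14:17628126-17628206) and miR-30b (chr14:17632573-17632661) were on the plus strand, 4366 bases apart. miR-30c (chr3:101650974-101651078) and miR-30e (chr3:101654094-101654199) were on the minus strand, 3015 bases apart. In RefSeq's annotation of the ARS1.2 goat assembly, used for names and neighbours only, 6 of 6 members were matched. There miR-30c and miR-30e lay within the span of NFYC, which encodes a subunit of a CCAAT-binding transcription factor, miR-30b and miR-30d within that of LOC108637533, a long non-coding RNA gene, and miR-30a and miR-30f within that of no gene. Which strand these genes use and whether the hairpins are intronic was not analysed here.

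The hairpins of miR-30c and miR-30f are shown because the names of both cross in the files. Capitals mark the sequences listed for the 5p and 3p arms in the CD49f-positive library.
miR-30c: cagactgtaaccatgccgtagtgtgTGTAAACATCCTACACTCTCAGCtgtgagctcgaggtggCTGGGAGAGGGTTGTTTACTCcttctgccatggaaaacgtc
miR-30f: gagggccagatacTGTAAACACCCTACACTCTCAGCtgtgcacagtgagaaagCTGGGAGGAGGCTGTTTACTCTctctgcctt
The miR-30f hairpin was matched to a single miRBase hairpin, that of cattle. In the CD49f-positive library, reads named after the pig miR-30c-2 hairpin, and listed with those of rat and human, were also placed in an interval that holds the miR-30f hairpin, with 3 reads of the 5p and 2 of the 3p arm. At the miR-30c hairpin the same name had 3 reads of the 5p arm. These reads, all with mismatches, were counted under miR-30c by name. Those of the 5p arm are few beside its 6905.7 5p reads in that library, while the 2 of the 3p arm stand beside only 39 3p reads.

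The family made up a similar small part of both libraries and was somewhat scarcer among the CD49f-positive reads. All 12 arms together had 112397 reads in the CD49f-positive library, 1.37% of its named miRNA reads (1.36 to 1.38), and 51206.5 reads in the CD49f-negative library, 1.67% (1.66 to 1.69). The share was thus 1.22 times higher in CD49f-negative cells, with a log2 ratio (positive over negative throughout) of -0.29 (-0.30 to -0.27). The choice of scaling sets the direction. TMM, which gives little weight to the few dominant miRNAs, moved every log2 ratio up by 0.45 and put the family at 0.16, and median-of-ratios scaling moved them up by 0.60 and put it at 0.31. Hairpins placed on the genome held 99.97% of the family's CD49f-positive and 99.94% of its CD49f-negative reads. Fewer cells of a type and less RNA per cell cannot be told apart in RNA from many cells.

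The 5p arms ranked in the same order in both libraries, and miR-30a-5p, the highest, had 24.7 and 31.8 times the reads of miR-30f-5p, the lowest. All values here are shares of named miRNA reads per arm. The levels are not divided by length, the listed sequences differ in length (16 bases for miR-30d-5p), and how well each is captured in library preparation was not tested. miR-30a-5p was the most abundant, with 42802.7 and 20114.9 reads, or 0.522% of CD49f-positive (0.517 to 0.527) and 0.656% of CD49f-negative reads (0.647 to 0.666). It ranked 19th and 21st among all miRNA arms of the libraries. miR-30d-5p followed with 37953.5 and 16830.2 reads, or 0.463% and 0.549%, and miR-30e-5p with 17496.5 and 7788.8 reads, or 0.213% and 0.254%. These 3 members, which share the end of their mature sequence, held most of the family's reads.

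miR-30c-5p, at 6905.7 and 2772.6 reads, made up 0.0843% and 0.0905% of the named miRNA reads. miR-30b-5p, at 4265.2 and 2454.1 reads, made up 0.0520% (0.0505 to 0.0536) and 0.0801% (0.0769 to 0.0833). miR-30f-5p was the scarcest 5p arm, with 1734.5 and 632.5 reads, or 0.0212% and 0.0206%. Within each library, the counting intervals of neighbours in this order did not overlap for any of the 5p arms.

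**Figure D1:**
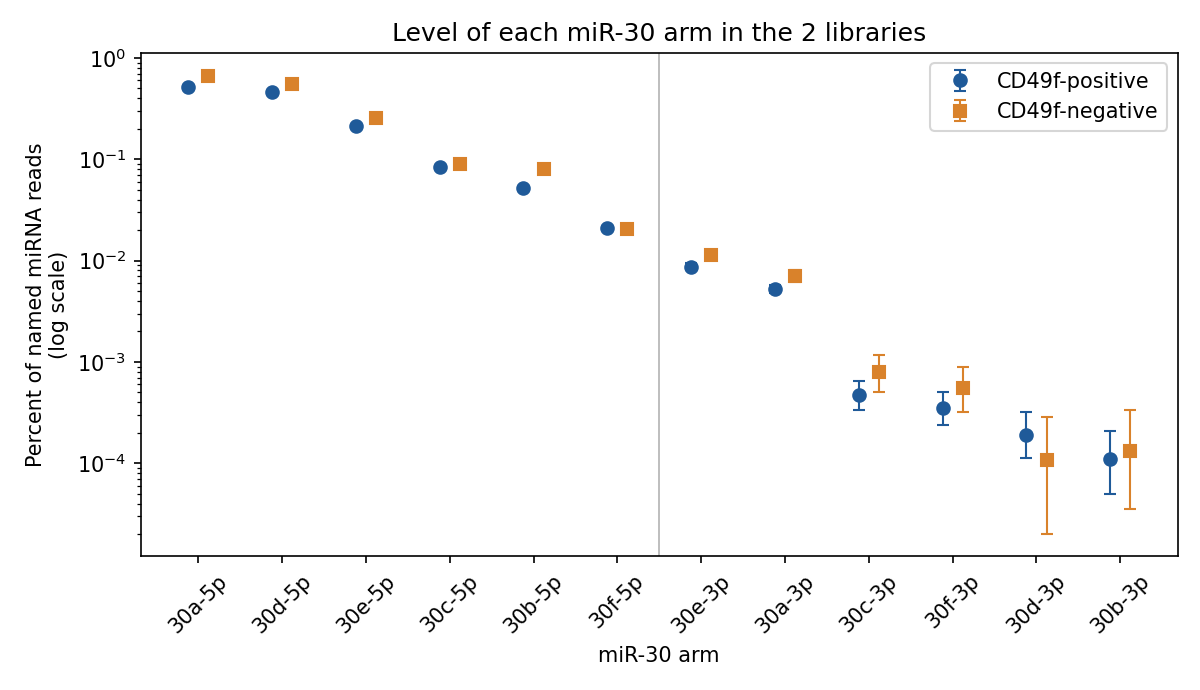
Percent of named miRNA reads (log scale) for the 12 miR-30 arms in the CD49f-positive (circles) and CD49f-negative (squares) library, with 1 library per group and 95% counting intervals as bars. Each 5p arm, on the left, lies above each 3p arm, and the 5p order is the same in both libraries, from miR-30a-5p at 0.522% and 0.656% to miR-30f-5p at 0.0212% and 0.0206%.

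None of the 8 miR-30 arms with enough reads to test differed by 2-fold between CD49f-positive and CD49f-negative cells. The call asked for 100 or more reads over both libraries, shares that differ 2-fold or more, and a counting interval without equal shares in it. Of the 12 arms, 8 had at least 100 reads, namely the 6 arms of the 5p side, miR-30a-3p and miR-30e-3p. None of the 8 was called lower or higher, against 24.8% called lower and 2.01% called higher of all 298 miRNA arms tested. With TMM scaling the 8 also had no call, against 13.4% lower and 9.06% higher, and with the median of ratios again none, against 9.4% and 11.4%. The median log2 ratio of the 8 arms was -0.29, beside -0.43 for all 298, and with TMM scaling 0.15 beside 0.02. The 4 arms under the minimum had log2 ratios from -0.76 for miR-30c-3p to 0.66 for miR-30d-3p, each with an interval that includes equal shares. miR-30d-3p, on 15.7 and 3.3 reads, had an interval of -0.81 to 3.42, and its ratio passed 2-fold with TMM scaling, at 1.10, and with the median of ratios, at 1.26.

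miR-30b-5p stood lowest of the 5p arms. Its share was 1.54 times higher in CD49f-negative cells, with a log2 ratio of -0.62 (-0.69 to -0.55). It was the only arm of the 8 that remained below equal shares with TMM scaling, at -0.18, and with the median of ratios, at -0.02. The log2 ratio of miR-30a-5p was -0.33 (-0.35 to -0.31), that of miR-30e-5p -0.25 (-0.29 to -0.21) and that of miR-30d-5p -0.25 (-0.27 to -0.22). The intervals of miR-30d-5p and miR-30e-5p overlapped. These 3 turned above equal shares with TMM scaling, to 0.12, 0.19 and 0.20. miR-30c-5p, at -0.10 (-0.17 to -0.04), turned to 0.34. miR-30f-5p was the highest, at 0.04 (-0.10 to 0.17), which does not separate it from equal shares, and had 0.48 with TMM scaling.

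With the read total, 7 of the 8 arms had an interval wholly below equal shares and none had one wholly above, beside 61.7% below and 15.8% above of all 298. With TMM scaling this was 1 below and 5 above, beside 35.6% and 40.3%, and with the median of ratios 0 below and 6 above, beside 29.2% and 47.7%. The count thus turns with the scaling for the family as it does for the whole table.

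**Figure D2:**
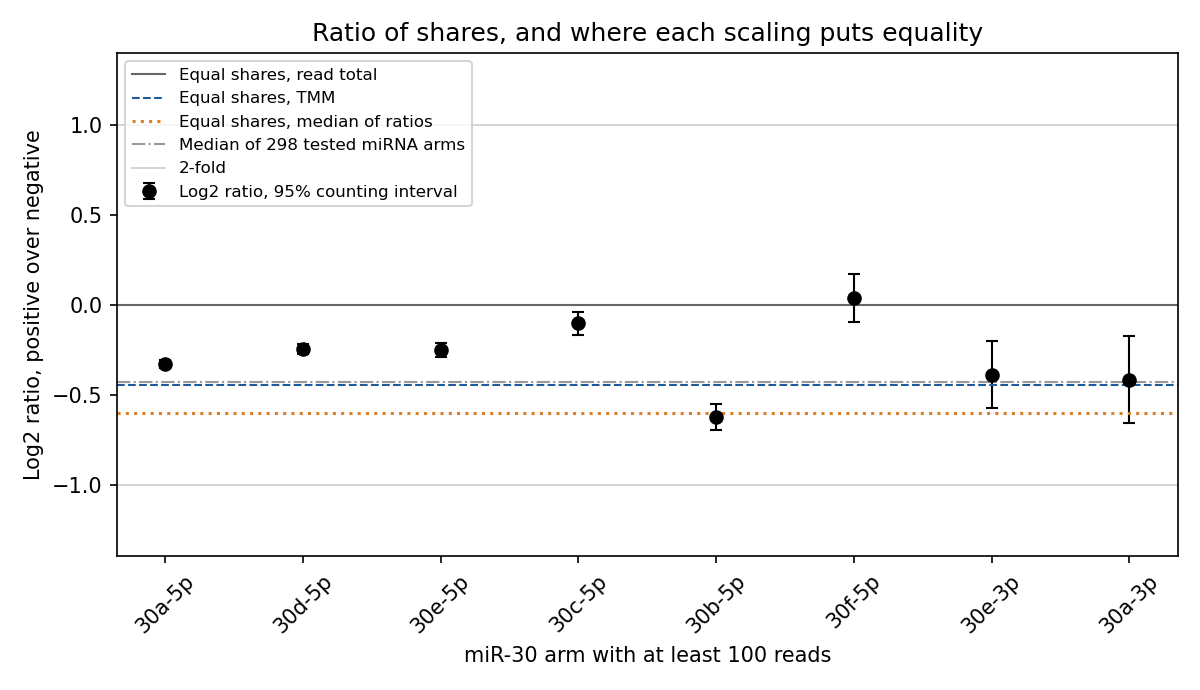
Log2 ratio of shares, CD49f-positive over CD49f-negative, for the 8 miR-30 arms with at least 100 summed reads, as points with 95% counting intervals from 1 library per group. Horizontal lines mark equal shares by the read total, TMM and the median of ratios, the median of all tested arms and 2-fold; every point lies within 2-fold, and only miR-30b-5p, at -0.62, lies below the TMM line.

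The shares of the members among the family's own 5p reads do not depend on library scaling, and they were close in both libraries. miR-30a held 38.5% of the 5p reads in CD49f-positive cells (38.2 to 38.8) and 39.8% in CD49f-negative cells (39.3 to 40.2). miR-30d held 34.1% (33.9 to 34.4) and 33.3% (32.9 to 33.7), and miR-30e 15.7% (15.5 to 16.0) and 15.4% (15.1 to 15.7). The intervals of miR-30e overlapped between the libraries, while those of miR-30a and miR-30d did not. The relative differences were wider among the scarcer members.

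miR-30b held 3.84% of the 5p reads in CD49f-positive cells (3.72 to 3.95) and 4.85% in CD49f-negative cells (4.66 to 5.04). miR-30c went the other way, at 6.21% (6.07 to 6.36) and 5.48% (5.28 to 5.68). miR-30f did so too, at 1.56% (1.49 to 1.63) and 1.25% (1.15 to 1.35). The ratio of miR-30b to miR-30c reads was 0.618 in CD49f-positive and 0.885 in CD49f-negative cells, although their first 18 bases are the same. The authors divided reads that fit more than 1 hairpin, so the counts of miR-30b and miR-30c may be linked. How many reads these members shared was not analysed here. With copies of the listed sequences alone, the difference in the share of miR-30b (CD49f-positive minus CD49f-negative) was -0.59 percentage points, against -1.01 over all reads.

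**Figure D3:**
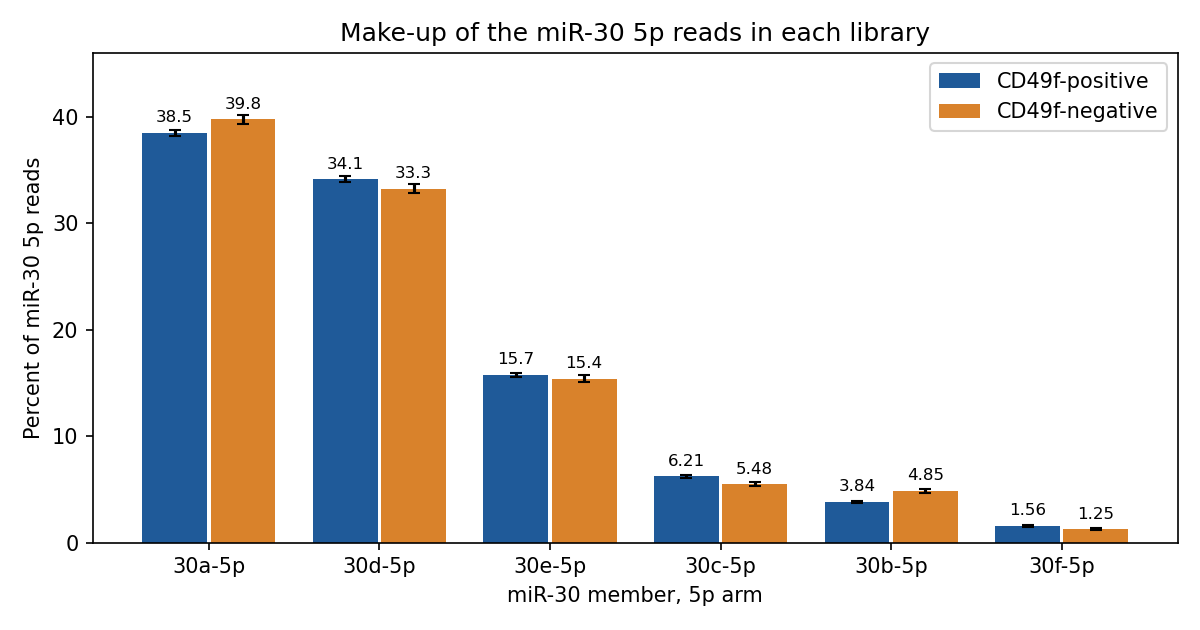
Percent of all miR-30 5p reads that each member held in the CD49f-positive and CD49f-negative library, as bars from 0 with 95% counting intervals, 1 library per group. miR-30a and miR-30d are the tallest bars in both libraries, and miR-30b, at 3.84% and 4.85%, is lower in the CD49f-positive library while miR-30c, at 6.21% and 5.48%, is higher.

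Members of 1 genomic pair did not have equal ratios. miR-30d and miR-30b had log2 ratios of -0.25 and -0.62, and the ratio of miR-30d-5p to miR-30b-5p reads was 8.90 in CD49f-positive and 6.86 in CD49f-negative cells. miR-30a and miR-30f had -0.33 and 0.04, with 24.7 and 31.8 reads of miR-30a-5p for each of miR-30f-5p. miR-30e and miR-30c had -0.25 and -0.10, with 2.53 and 2.81 reads of miR-30e-5p for each of miR-30c-5p. Summed by pair, the ratios were closer to each other, at -0.29 for miR-30b with miR-30d, -0.32 for miR-30a with miR-30f and -0.21 for miR-30c with miR-30e. Most reads of each sum are those of its more abundant member, miR-30d, miR-30a or miR-30e, so each sum must lie near that member's ratio. Grouped instead by the end of the mature sequence, miR-30a, d and e had -0.28 and miR-30b, c and f had -0.28.

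The 3p arms were rare in both libraries. Of the family's reads they held 1.10% (1.04 to 1.17) in CD49f-positive cells and 1.20% (1.10 to 1.30) in CD49f-negative cells, and these intervals overlap. miR-30e gave the largest 3p share of any member, 3.93% of its reads (3.65 to 4.22) in CD49f-positive and 4.30% (3.87 to 4.76) in CD49f-negative cells, from 715.2 and 349.8 3p reads. The 3p arm held 0.997% and 1.06% of miR-30a's reads, with 431.2 and 214.8 reads, and 1.64% (1.10 to 2.35) and 2.62% (1.53 to 4.15) of those of miR-30f, with 29 and 17 reads. For these members no difference in arm share between the libraries was detectable at this depth.

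The remaining 3p arms were near the limit of detection. miR-30d had the most one-sided hairpin, with 15.7 and 3.3 3p reads beside its abundant 5p reads, or 0.0413% and 0.0198%. miR-30b-3p had 9 and 4 reads, and miR-30c-3p 39 and 24.5. Of the miR-30c-3p reads, 17 and 14 came from an entry matched to a platypus hairpin, with a 16-base listed sequence that lies mostly beyond the mature arm. Apart from 1 substitution and its last base, that sequence reads as the end of the goat miR-30f hairpin shown above. Only 20 and 10 miR-30c-3p reads lay at the goat miR-30c hairpin. In the order of 3p levels, miR-30e-3p and miR-30a-3p stood apart from each other and from the rest. The rest followed as miR-30c, f, d and b in the CD49f-positive library and as miR-30c, f, b and d in the CD49f-negative library. Within each of these orders the intervals of neighbours overlapped.

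The 3p arms fall into groups by seed, shown with the seed in capitals, as listed in the CD49f-positive library.
miR-30a-3p: cTTTCAGTcggatgtttgcag
miR-30e-3p: cTTTCAGTcggatgtttacag
miR-30b-3p: cTGGGAGGtggatgtttacttc
miR-30c-3p: cTGGGAGAgggttgtttactc
miR-30f-3p: cTGGGAGGaggctgtttactct
miR-30a-3p and miR-30e-3p shared the seed TTTCAGT and differed by G18A alone. They had close log2 ratios, -0.42 (-0.66 to -0.17) and -0.39 (-0.58 to -0.20). With TMM scaling both turned, to 0.03 and 0.06. The matched cattle sequence differed from the goat miR-30f-3p by A8G, within the seed. All of the 29 and 17 goat reads matched with no mismatch, and their seed was that of miR-30b-3p. The listed miR-30d-3p sequence, from 6 copies and 1 copy, began 1 base later in the CD49f-positive than in the CD49f-negative library, too few to compare.

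Summed over the family, mismatches were rarer in miR-30 reads than in named miRNA reads as a whole, and rarer in the CD49f-positive library. Mismatch-free reads made up 87.1% of CD49f-positive and 79.3% of CD49f-negative miR-30 reads, beside 67.3% and 64.0% of all named miRNA reads. Each of the 6 arms of the 5p side had a lower share in the CD49f-negative library, with intervals that did not overlap. All named miRNA reads together were lower there as well. How many of all tested arms differed in this way was not analysed here, so it cannot be called a trait of miR-30. miR-30d-5p had 85.1% (84.8 to 85.5) and 76.0% (75.3 to 76.6), miR-30b-5p 90.4% (89.5 to 91.3) and 81.0% (79.4 to 82.5), and miR-30f-5p 94.3% (93.2 to 95.4) and 86.6% (83.8 to 89.3). The pair of 3p arms with at least 100 reads were closer between libraries, with 74.5% and 70.6% for miR-30e-3p and 70.7% and 68.0% for miR-30a-3p. Among the scarce 3p arms the values could lie further apart, as for miR-30d-3p with 89.4% (61.7 to 98.4) and 60% (9.43 to 99.2), where the intervals overlap. miR-30c-3p went against the family sum, at 30.8% (17.0 to 47.6) and 28.6% (12.6 to 51.1), below all named miRNA reads. miR-30b-3p and miR-30f-3p lay above all named miRNA reads in both libraries. Counted over reads with no mismatch only, the log2 ratio was -0.28 for miR-30a-5p, -0.54 for miR-30b-5p and -0.15 for miR-30d-5p.

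**Figure D4:**
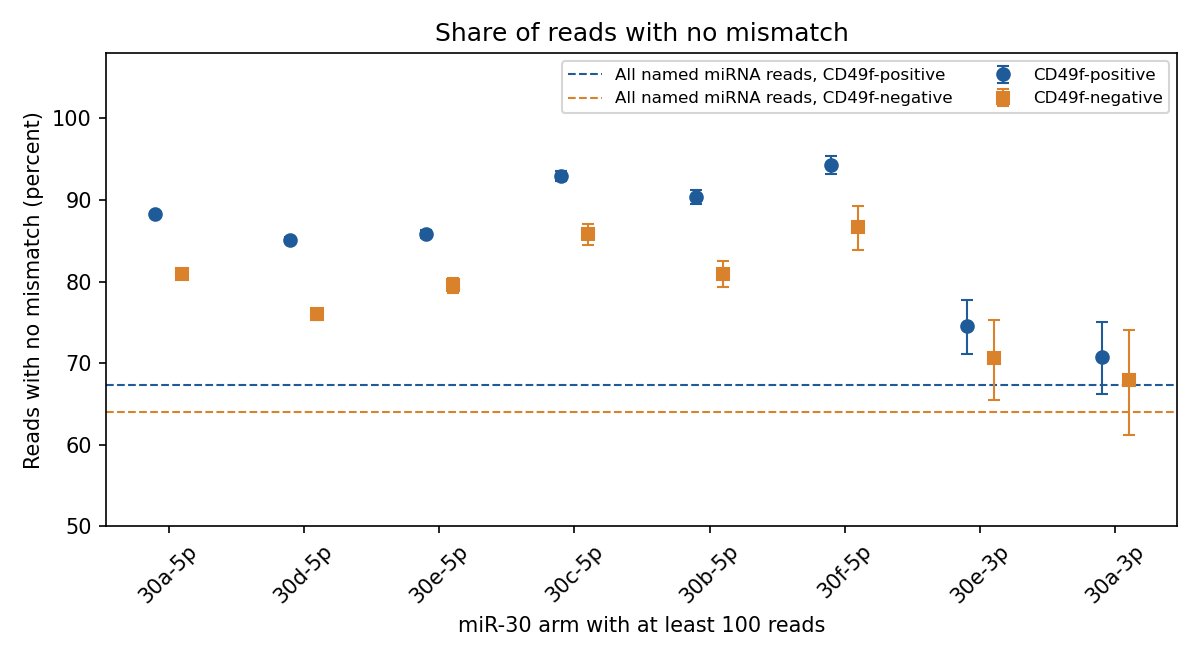
Percent of reads with no mismatch for the 8 miR-30 arms with at least 100 summed reads, CD49f-positive (circles) and CD49f-negative (squares), with 95% counting intervals, 1 library per group and an axis that starts at 50%. Dashed lines mark all named miRNA reads, 67.3% and 64.0%; each 5p arm lies above both lines and lower in the CD49f-negative library.

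The copies of the listed sequence were also set against all reads of each arm at its hairpin. Those reads include the ones with mismatches, so the values are tied to the mismatch-free shares above and are no separate measure. Copies are whole counts while arm reads are split between hairpins, so the quotient is not a strict share. For miR-30b-5p the copies equalled 74.4% of the arm's reads in CD49f-positive and 56.7% in CD49f-negative cells. For the other 5p arms these values were closer, with 22.1% and 20.3% for miR-30a, 40.9% and 36.1% for the 16-base sequence of miR-30d, 54.0% and 49.8% for miR-30e, 55.0% and 52.4% for miR-30c, and 59.0% and 56.0% for miR-30f. Each was lower in the CD49f-negative library, and how many arms outside the family were so was not analysed here. The files list 1 sequence per arm, so the lengths of the other reads were not analysed here.

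Among the 53 other miRNA arms with at least 10000 summed reads, those nearest to the summed miR-30 5p arms (log2 ratio -0.28) were miR-16b-5p at -0.28, miR-451-5p, a miRNA of red blood cells, at -0.29, and miR-186-5p at -0.29. This likeness rests on 1 ratio over 2 libraries. Marker miRNAs of other cell types had log2 ratios on both sides of it. The summed miR-34b, miR-34c and miR-449 arms of meiotic and post-meiotic germ cells held 2.25% of CD49f-positive and 11.4% of CD49f-negative reads, with 7 of 7 tested arms called lower. The endothelial miR-126 held 1.43% and 0.755%, the smooth muscle miR-143 and miR-145 22.6% and 18.9%, and the Sertoli cell miRNA miR-202 0.0320% and 0.0823%. Red blood cell miRNAs held 0.296% and 0.372%, white blood cell miRNAs 0.0197% and 0.0248%, and epithelial miRNAs 0.00670% and 0.0245%. Of the tested arms in these lists, 2 of 2 epithelial, 1 of 2 Sertoli and 1 of 4 smooth muscle arms were called lower. Apart from these and the germ cell arms, no arm was called. These calls use the read total, with which 24.8% of all 298 tested arms were called lower and 2.01% higher. With TMM scaling the log2 ratios of the red and white blood cell lists turned from -0.33 and -0.33 to 0.12 and 0.11. The other lists kept their direction. The summed endothelial list went from 0.93 to 1.37, past 2-fold, and the Sertoli list from -1.36 to -0.92, within 2-fold. No other list crossed 2-fold. Calls of single arms in these lists with TMM scaling are not given here. No list was at 0 in either library, and their part in the miR-30 values was not tested.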

How the data were processed

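Small RNA of 1 CD49f-positive and 1 CD49f-negative library was turned into libraries with the TruSeq Small RNA kit, per the labels' protocols. The series text speaks of triplicates, and 2 samples are used here. The authors mapped reads to mammalian hairpins of miRBase, a goat genome and expressed sequences, per the file headers. Aligner, miRBase release and build: not given in the sources used here. Reads per arm are expected counts as deposited, with shared reads split between hairpins: of 12 miR-30 entries at placed hairpins, 9 in each library were not whole numbers, at a tolerance of 0.001. Copies of a listed sequence are whole counts, per the file headers. Hairpin GC content is a deposited percent and was not used. Folding energies were not used.

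Reads were summed by name and arm. Unnamed entries (0.555% and 0.611% of reads) stayed out. Ratios are shares of named reads with 0.5 reads added, and intervals are exact (Clopper-Pearson), on counts rounded to whole reads. TMM (edgeR 4.0.16) and median-of-ratios (DESeq2 1.42.0) supplied scaling factors only, from names with at least 10 reads. The calculation was tested on simulated counts. Members, lists and rules were chosen with earlier results of these data known. Named were all miR-30 arms and the 3 nearest others. R 4.3.3, SciPy 1.17.1, Python 3.11.15, pandas 2.3.3, matplotlib 3.10.9 and numpy 2.4.6 were used.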

Additional observations from a re-analysis of the deposited data

How the results depend on the processing

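Scaling alone decides the direction of most miR-30 ratios. In the order all arms, 5p arms, 3p arms and median of the 8 arms, TMM gave log2 ratios of 0.16, 0.16, 0.039 and 0.15. The median of ratios gave 0.31, 0.32, 0.19 and 0.31. They were 0.0072, 0.0086, -0.11 and 0.0015 with a total without the 10 most abundant miRNAs of either library, and 0.055, 0.056, -0.066 and 0.049 with TMM from names with at least 100 reads, a setting chosen after seeing the data. The number of the 8 arms below equal shares went from 7 to 1, 1, 4 and 3 under these settings. With TMM the turned arms were miR-30a-3p (0.029), miR-30a-5p (0.12), miR-30c-5p (0.34), miR-30d-5p (0.20), miR-30e-3p (0.057) and miR-30e-5p (0.19). With the median of ratios they stood at 0.18, 0.27, 0.50, 0.35, 0.21 and 0.35. Without the most abundant miRNAs miR-30c-5p (0.19), miR-30d-5p (0.046) and miR-30e-5p (0.041) turned, and with TMM from at least 100 reads miR-30a-5p (0.0098), miR-30c-5p (0.24), miR-30d-5p (0.094) and miR-30e-5p (0.088). Reads with no mismatch gave -0.22 for all arms and -0.22 for 5p arms, and 3p shares of 0.921% and 1.04%. Copies of listed sequences gave -0.36, -0.36 and -0.55 for all, 5p and 3p arms, turned miR-30f-5p to -0.13, and moved the differences in share of 5p reads to -0.59 points for miR-30b-5p and, turned, to -0.23 points for miR-30e-5p. A 1.5-fold rule called 1 arm lower, miR-30b-5p. The share of all tested arms called by that rule is not given here, and the 2-fold rule already called 24.8% of them lower. Other settings kept counts of calls at 0. The cause was not tested. No paired analysis was possible because each group has 1 library. Arms under 100 reads are limited by depth.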
